A study of Mus musculus with 2 samples.

Results

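The 10 genes described here regulate programmed cell death: Bcl2a1a, Bcl2a1b, Bcl2a1d, Mcl1, Bcl2l1, Bcl2l11, Cflar, Birc2, Birc3 and Casp8. They were chosen as a list of gene symbols, and all 10 were found among the 55536 annotated genes of the deposited tables, of which 22028 are protein-coding. The list was drawn up with earlier results of these data known, so the levels below are a description.

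The data are RNA-seq libraries of total RNA, depleted of ribosomal RNA, from bone marrow-derived macrophages of C57BL/6J mice, grown as primary cells. The cells received 100 ng/ml Lipid A, the toxic core of bacterial lipopolysaccharide and a ligand of TLR4, for 12 hours, were washed and rested for 12 hours, and then received 100 ng/ml again for 60 min. RNA came from the nucleus according to the source label and from the nucleoplasm according to the description. They form 1 group of 2 biological replicates. Untreated and singly treated cells were not analysed here, so no value below is a response to Lipid A. The labels give both replicates the same donor identifier and record 1 µg of RNA for replicate 1 and 500 ng for replicate 2. No label states that separate animals were used, and differences between the replicates may be technical.

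BCL2-family survival proteins (the A1 proteins of the Bcl2a1 genes, MCL1 and BCL-xL) hold back the pore formers BAX and BAK and capture BH3-only proteins such as BIM, the product of Bcl2l11. Downstream of TNF and Toll-like receptors, the cellular IAP ubiquitin ligases of Birc2 and Birc3 build survival signals on RIPK1. Caspase 8, when paired with its inactive relative c-FLIP from Cflar, cleaves RIPK1 and RIPK3 and so restrains necroptosis, the lytic death carried out by MLKL. In macrophages, NF-kB is known to induce Bcl2a1 genes, Birc3, Cflar and Bcl2l1.

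The Bcl2a1 genes are near-identical copies, and the start of their coding sequences is printed because it holds 6 of the 12 coding positions at which the 3 copies differ. The lines give coding bases 1 to 60 from the GENCODE M21 transcripts, 5′ to 3′, with capitals at the differing positions.
Bcl2a1a: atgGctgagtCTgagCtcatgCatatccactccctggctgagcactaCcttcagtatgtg
Bcl2a1b: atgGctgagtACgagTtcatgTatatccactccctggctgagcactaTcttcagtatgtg
Bcl2a1d: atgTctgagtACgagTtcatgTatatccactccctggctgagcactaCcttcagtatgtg
Each coding sequence has 516 bases and 172 codons. Over the aligned bases of the whole transcripts, Bcl2a1a and Bcl2a1b were 98.2% identical with 15 mismatches, Bcl2a1a and Bcl2a1d 98.8% with 10, and Bcl2a1b and Bcl2a1d 99.1% with 7. The encoded residue differed at 8 codons between Bcl2a1a and Bcl2a1b, at 6 between Bcl2a1a and Bcl2a1d and at 4 between Bcl2a1b and Bcl2a1d. Only part of each transcript can tell the copies apart. Of its runs of 31 bases, 20.4% in Bcl2a1a, 11.2% in Bcl2a1b and 10.9% in Bcl2a1d occurred in no other gene.

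The copies also share sequence upstream. The next lines give a block just before their starts, printed because the level of Bcl2a1a stood apart from the other copies in these libraries. It comes from the RefSeq promoter table (GRCm38.p6), which gave 14 promoters for the 10 genes, and is written 5′ to 3′ on the gene's strand. Capitals mark bases that are not the same in all 3 genes, including 6 bases present in Bcl2a1a and Bcl2a1b and missing from Bcl2a1d.
Bcl2a1a, chr9:88956714-88956855, plus strand: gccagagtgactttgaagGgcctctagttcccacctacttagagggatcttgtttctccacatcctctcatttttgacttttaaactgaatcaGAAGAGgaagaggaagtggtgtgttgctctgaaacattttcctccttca
Bcl2a1b, chr9:89199023-89199164, plus strand: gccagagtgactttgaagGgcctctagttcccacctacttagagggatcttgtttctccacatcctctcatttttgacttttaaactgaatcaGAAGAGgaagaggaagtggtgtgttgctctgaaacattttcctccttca
Bcl2a1d, chr9:88731915-88732050, minus strand: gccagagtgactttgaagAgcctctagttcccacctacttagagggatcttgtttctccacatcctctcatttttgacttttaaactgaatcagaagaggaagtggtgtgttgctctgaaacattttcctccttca
The block was the same letter for letter in Bcl2a1a and Bcl2a1b. It ended 44 bases before the annotated start of those genes and directly at the start of Bcl2a1d. The letters GAGGAAGT, a form of the element that the macrophage factor PU.1 binds, occurred in the promoters of the 3 Bcl2a1 copies and of no other gene among the 10, against 3.20% of 32851 promoters searched on both strands. TGANTCA, a loose form of the AP-1 element that allows any base at N, was found in the same 3 genes and in 7.81% of all promoters. In the printed block it reads TGAATCA in all 3 genes, and the stricter AP-1 element was not searched. In the block printed above these matches do not overlap. The palindromic element TGACGTCA, bound by CREB and ATF factors, occurred in Birc2 alone among the 10 (1.79% of all promoters). A kappaB motif, GGGRNWYYCC, occurred in Bcl2l1 alone (4.51%). Here R is A or G, W is A or T, Y is C or T and N is any base. Other forms of the kappaB site, and sequence farther from the start, were not searched. The 3 Bcl2a1 copies share this sequence, so their matches are not independent of each other and cannot be weighed as 3 against the shares of all promoters. These are matches of letters within 300 bases and say nothing about binding.

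Replicate 1 held 23630328 expected counts on genes and replicate 2 held 15687634, and the 10 genes took 0.420% and 0.437% of them. The lowest value among the 10 was 646 expected counts, for Bcl2a1a in replicate 2. All 7 macrophage markers checked (such as Csf1r, Adgre1 and Lyz2) reached 10 TPM in both libraries. Of 18 markers of neutrophils, T and NK cells, B cells, mast cells and basophils, and erythroid cells, 0 reached 1 TPM in both, and their levels summed to 0.75 TPM in replicate 1 and 0.46 in replicate 2. TPM (a length-corrected abundance) is a share of all RNA measured, so an abundant RNA elsewhere in a library lowers every gene. Over nuclear protein-coding genes at 1 TPM or more in both libraries by the gene table, the median log2 TPM ratio of replicate 1 over replicate 2 was 0.47. It was −0.39 by the second quantifier, a deposited transcript table in the format of kallisto summed by gene. Values are TPM of the gene table unless said otherwise, as mean ± SD over the 2 libraries. In bulk RNA, fewer cells carrying a transcript and less RNA per cell cannot be told apart.

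The survival genes were abundant nuclear RNAs. All 10 genes reached 10 TPM in both libraries, as did 14.9% of the protein-coding genes, and all 10 reached 1 TPM, as did 39.9%. At 100 TPM in both libraries there were 5 (Cflar, Mcl1, Bcl2a1b, Bcl2a1d and Birc3), beside 1.43% of protein-coding genes. The median of the 10 was 129 TPM in replicate 1 and 113 in replicate 2, and the median of all protein-coding genes was 0.28 and 0.21 TPM. Among protein-coding genes of at least 1 TPM in both, that median was 9.20 and 6.56 TPM.

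**Figure D1:**
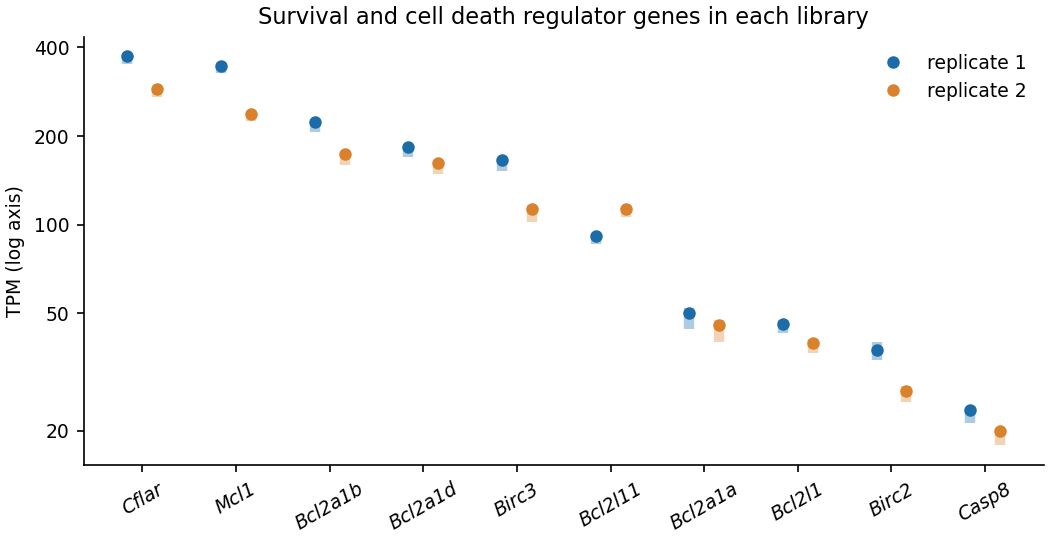
TPM of each gene on a log axis, with a point for replicate 1 (left) and replicate 2 (right) and a bar for the interval deposited with each value. Genes run from Cflar, with a mean of 331 TPM, down to Casp8, with 21.7 TPM, and on this scale replicate 1 is the higher library for every gene but Bcl2l11; some points lie above their own bar because the deposited interval surrounds a posterior mean.

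From high to low by mean, the order was Cflar, Mcl1, Bcl2a1b, Bcl2a1d, Birc3, Bcl2l11, Bcl2a1a, Bcl2l1, Birc2 and Casp8. Of the 9 pairs of neighbours in this order, 4 had ranges that did not overlap between genes: Mcl1 above Bcl2a1b, Bcl2l11 above Bcl2a1a, Bcl2l1 above Birc2, and Birc2 above Casp8. The other neighbours had ranges that overlapped. Compared within each library, 8 of the 9 pairs kept the same order in both, and only Birc3 and Bcl2l11 changed places. With the second quantifier, which per the deposited readme files was derived from reads and not from transcriptome alignments, 9 of the 10 genes stayed at 10 TPM or more in both libraries. Birc3 moved most against the other genes. It made up 10.7% of the summed TPM of the 10 in replicate 1 and 9.26% in replicate 2 by the gene table, and 18.8% and 17.5% by the second quantifier, which placed it above both large Bcl2a1 copies.

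**Figure D2:**
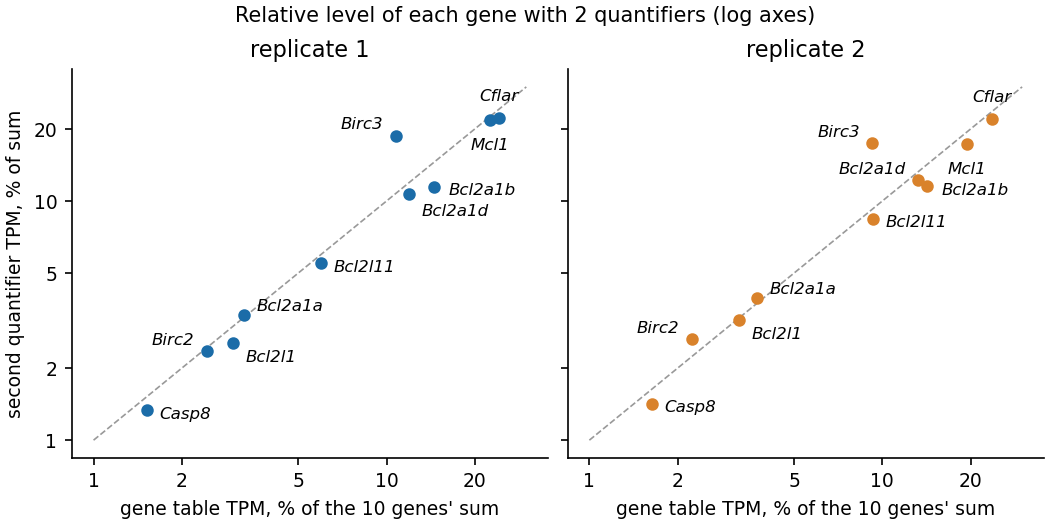
Share of each gene in the summed TPM of the 10 genes, by the gene table (x axis, log scale) and by the second quantifier (y axis, log scale), for replicate 1 and replicate 2; the dashed line marks equal shares. Birc3 lies farthest above the line, at 18.8% and 17.5% on the y axis against 10.7% and 9.26% on the x axis.

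Of the survival genes of the BCL2 family, Mcl1 (ENSMUSG00000038612.16, chr3:95658788-95663176 on mm10) was the most abundant single gene. It encodes a short-lived protein that binds BIM and BAK. Mcl1 had 347 TPM in replicate 1 and 238 in replicate 2 (292 ± 76.8, SD, n = 2), ranking 94 and 97 among 22015 nuclear protein-coding genes. All of its TPM lay on Mcl1-201, the transcript of the 331-codon product. The second quantifier put 15.7% of it on Mcl1-202 (285 codons) in replicate 1 and none in replicate 2.

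Bcl2l1 (ENSMUSG00000007659.18, chr2:152780668-152831728), the gene of BCL-xL, stood far below Mcl1. It had 46.2 TPM in replicate 1 and 39.6 in replicate 2 (42.9 ± 4.70), so Mcl1 was 7.50-fold and 6.01-fold higher. The 233-codon BCL-xL product held 52.2% of its TPM in replicate 1 and 45.4% in replicate 2, and a 209-codon product (Bcl2l1-205 and Bcl2l1-206) held 36.4% and 46.1%. In the annotation Bcl2l1-205 and Bcl2l1-206 end at 152828127 and 152828362, whereas Bcl2l1-201 runs on to 152780668. How far reads of unspliced nuclear RNA entered these shares was not tested. The split between the transcripts behind the 233-codon product was not stable between the libraries. Bcl2l1-202 had 30.4% of the gene's TPM in replicate 1 and 8.09% in replicate 2, while Bcl2l1-201 had 21.7% and 37.3%. By the second quantifier Bcl2l1-202 had 20.7% and 9.67%, and Bcl2l1-201 had 23.1% and 28.5%.

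The Bcl2a1 genes, which encode A1 proteins, lie on chromosome 9: Bcl2a1a (ENSMUSG00000102037.1, chr9:88956900-88962419), Bcl2a1b (ENSMUSG00000089929.1, chr9:89199209-89207827) and Bcl2a1d (ENSMUSG00000099974.1, chr9:88723285-88731914). Bcl2a1b had 223 TPM in replicate 1 and 174 in replicate 2 (198 ± 34.9). Bcl2a1d had 184 and 162 TPM (173 ± 15.4), and its range overlapped that of Bcl2a1b. Bcl2a1a had 50.2 and 45.6 TPM (47.9 ± 3.26) and did not overlap either copy. Bcl2a1b was 4.45-fold and 3.81-fold above Bcl2a1a, by the second quantifier 3.42-fold and 2.94-fold. Bcl2a1d was 3.67-fold and 3.56-fold above Bcl2a1a, and 3.21-fold and 3.12-fold by the second quantifier. Which of the larger copies led was not settled: the ratio of Bcl2a1b to Bcl2a1d was 1.21-fold and 1.07-fold, but 1.07-fold and 0.942-fold by the second quantifier.

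Because reads can be exchanged between the copies, their sum is the firmer value. Together they had 457 TPM in replicate 1 and 381 in replicate 2. This was 1.32-fold and 1.60-fold the level of Mcl1, a log2 ratio of 0.54 ± 0.20 (SD, n = 2) after adding 0.1 TPM. The sign turned when counts were not divided by length, at −1.82, since Bcl2a1 transcripts have 817 to 863 bases and Mcl1-201 has 3418. Bcl2a1a made up 11.0% and 11.9% of the sum. A further gene, Gm29094, overlaps Bcl2a1b on the same strand and shares runs of 31 bases with the copies. It had 12.0 and 12.1 TPM from 144 and 128 expected counts, but 722 and 683 counts by the second quantifier. Gm10634 overlaps Bcl2a1d on the opposite strand (28.9 and 21.9 TPM). The use of strand in the counting is not given in the sources used here, so reads of such a pair cannot be told apart.

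Bcl2l11 (ENSMUSG00000027381.16, chr2:128126038-128162547), the gene of the death-promoting protein BIM, was present at a high level beside these survival genes. It had 91.9 TPM in replicate 1 and 114 in replicate 2 (103 ± 15.3), and it was the only gene of the 10 whose gene table TPM was higher in replicate 2, as for 11.2% of the 3626 genes at 10 TPM or more in both libraries. By TPM of the second quantifier all 10 were higher in replicate 2, as were 81.7% of those genes. Mcl1 exceeded it 3.77-fold in replicate 1 and 2.10-fold in replicate 2, a log2 ratio of 1.49 ± 0.60. The summed survival genes (the 3 Bcl2a1 copies, Mcl1 and Bcl2l1) exceeded it 9.25-fold and 5.80-fold. By the second quantifier this sum was 9.07-fold and 5.69-fold above Bcl2l11, so replicate 1 had the larger excess with both quantifiers.

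BIM is made in an extra-long, a long and a short form, whose products have 196, 140 and 110 codons in mouse. The 196-codon form, on Bcl2l11-205, held 47.4% of the gene's TPM in replicate 1 and 53.0% in replicate 2. The 140-codon form held 3.82% and 1.79%, and the 110-codon form 3.20% and 1.94%. By the second quantifier the 110-codon form held more, 10.2% and 4.04%, against 3.03% and 1.94% for the 140-codon form. A different transcript, Bcl2l11-202, whose coding sequence has 91 codons, held 25.5% ± 0.731 (SD, n = 2), at 23.9 TPM in replicate 1 and 28.4 in replicate 2. It ends at 128131495, whereas Bcl2l11-205 runs on to 128162547, and how far unspliced RNA entered its share was not tested. The non-coding Bcl2l11-208 held 18.0% and 16.7%.

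Cflar (ENSMUSG00000026031.15, chr1:58711508-58758884), the gene of c-FLIP, had the highest mean of the 10 by the gene table, in a range that overlapped that of Mcl1. It had 373 TPM in replicate 1 and 288 in replicate 2 (331 ± 60.2), ranking 83 and 67 among nuclear protein-coding genes. Casp8 (ENSMUSG00000026029.14, chr1:58795374-58847503), the gene of its partner protease, was the lowest, with 23.5 TPM in replicate 1 and 20.0 in replicate 2 (21.7 ± 2.49). The genes are neighbours, 36.5 kb apart with no protein-coding gene between them. Cflar was 15.9-fold above Casp8 in replicate 1 and 14.4-fold in replicate 2, a log2 ratio of 3.91 ± 0.10. With only protein-coding transcripts counted, the ratio was 11.4-fold and 10.5-fold, and Cflar (267 and 209 TPM) ranked below Mcl1 in both libraries.

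The long form of c-FLIP keeps a caspase-like domain without activity, and short forms lack it. The 481-codon long form, on Cflar-205, held 54.7% of the gene's TPM in replicate 1 and 50.7% in replicate 2, or 81.8% and 79.7% of its expected counts. The short 215-codon form, on Cflar-204, held 16.8% and 21.7% of TPM, or 7.10% and 9.65% of counts. Cflar-204 had 62.5 and 62.7 TPM, which was above the TPM of all transcripts of Casp8. Cflar-204 ends at 58733227, whereas Cflar-205 runs on to 58758884. How far unspliced RNA entered the level of Cflar-204 was not tested. Cflar-213, annotated as a retained intron, held 8.99% and 8.77%. For Casp8 the 480-codon product of Casp8-201 and Casp8-202 held 86.5% and 98.2%. A 500-codon product, on Casp8-203, held 13.5% in replicate 1 and 1.85% in replicate 2. By the second quantifier the 500-codon product held 27.2% and 5.48%, again more in replicate 1. Gm37760 overlaps Casp8 on its strand at 1.90 and 1.36 TPM.

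Birc3 and Birc2 encode the cellular IAP proteins cIAP2 and cIAP1 and sit 11.6 kb apart on chromosome 9. Birc3 (ENSMUSG00000032000.17, chr9:7848699-7873186) had 166 TPM in replicate 1 and 113 in replicate 2 (139 ± 37.2). Birc2 (ENSMUSG00000057367.12, chr9:7818227-7837064) had 37.5 TPM in replicate 1 and 27.2 in replicate 2 (32.4 ± 7.25). Birc3 was thus 4.42-fold and 4.15-fold above its neighbour, a log2 ratio of 2.09 ± 0.06. Protein-coding transcripts alone gave 4.23-fold and 3.37-fold, and the second quantifier 7.97-fold and 6.62-fold.

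The level of Birc3 rested in part on transcripts annotated as very short. Whether RNAs of that length were present was not tested. Birc3-205 and Birc3-206, processed transcripts of 355 and 360 bases without a coding sequence, together held 36.4% of its TPM in replicate 1 and 37.2% in replicate 2, yet 3.45% and 3.42% of its expected counts. The second quantifier gave these transcripts 64.9% and 62.1% of the gene's TPM. The TPM divided these counts by effective lengths of 138.5 to 155 bases. Birc3-201, the transcript of the full 602-codon product, held 48.5% and 48.0% of TPM, and Birc3-202 (376 codons) held 13.0% and 11.3%. Birc3-202 ends at 7855815, whereas Birc3-201 runs on to 7848699, and how far unspliced RNA entered the share of Birc3-202 was not tested. On protein-coding transcripts Birc3 had 103 TPM in replicate 1 and 68.1 in replicate 2. By the gene table Birc2 differed from this: its 612-codon product, on Birc2-202 and Birc2-204, held 65.0% and 74.2% of TPM. Birc2-203, annotated as a retained intron, held 31.1% and 23.9% of TPM, or 14.7% and 10.4% of counts. The processed transcript Birc2-205, of 707 bases, held 3.89% and 1.91% of TPM. The second quantifier gave Birc2-205 18.4% and 26.4% of TPM, but 4.52% and 7.17% of counts. It left 52.2% and 49.98% of TPM on the 612-codon product. How far Birc2 differed from Birc3 thus depended on the quantifier.

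**Figure D3:**
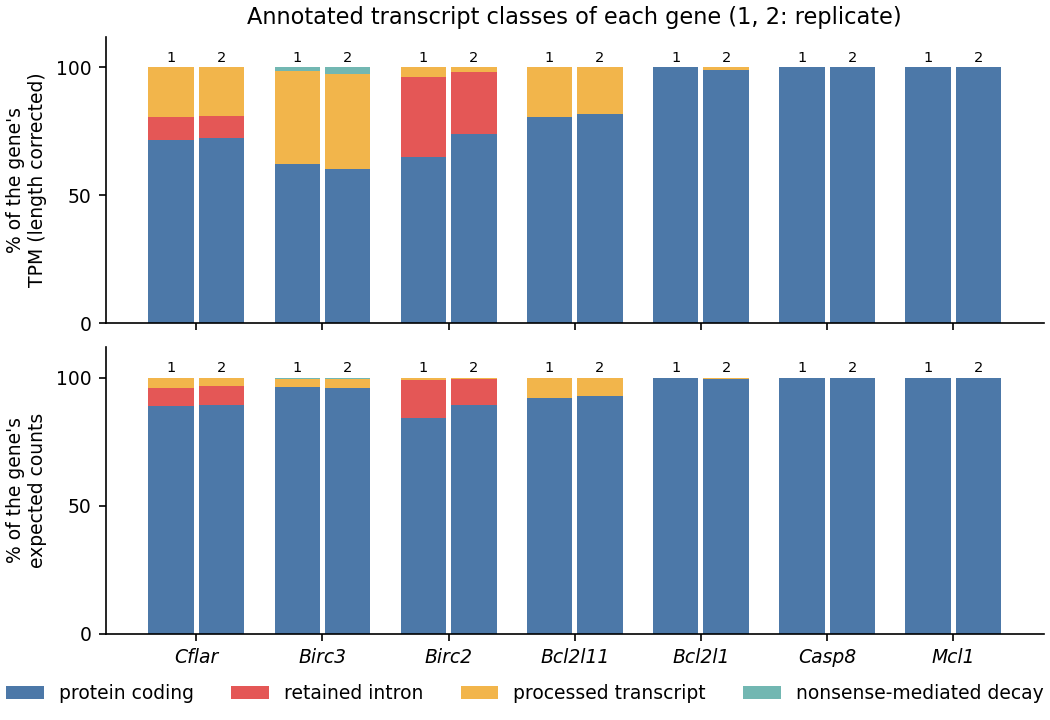
Percent of each gene's TPM (upper panel) and of its expected counts (lower panel) on each annotated transcript class, for the 7 genes with more than a single annotated transcript, with bars for replicate 1 and replicate 2. Processed transcripts fill 36.4% and 37.2% of Birc3 by TPM but 3.45% and 3.42% by counts, and retained introns fill 31.1% and 23.9% of Birc2 by TPM.

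Transcripts annotated as retained introns were a small class in these genes. Over the 10 genes they held 2.93% of TPM in replicate 1 and 2.61% in replicate 2. Over the 3281 protein-coding genes at 10 TPM or more in both libraries they held 14.9% and 15.1%, with a median gene at 12.4% and 13.8%. Only Cflar and Birc2 of the 10 have an annotated transcript of this class, whereas 69.8% of those 3281 genes do. For the other 8 genes the annotation offers no such transcript, so intron reads there had no place in this class.

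The libraries were compared gene by gene after TMM scaling of the counts, which sets the bulk of genes equal. Of the 10 genes, 0 differed by more than 2-fold, against 8.87% of the 14038 genes whose counts averaged 10 or more. That share includes genes with far fewer counts than these 10, whose lowest value was 646, so it is not a background of like depth. With 2 libraries of 1 group there is no test of the difference between the libraries. The intervals given cover counting error only. Bcl2l11 was farthest apart, with a log2 ratio of replicate 1 over replicate 2 of −0.80 (95% interval −0.85 to −0.76), or 1.74-fold higher in replicate 2. Only 1.63% of the 4360 genes whose counts averaged 500 or more had a lower ratio, and 95% of them lay between −0.67 and 0.87. The counts of the second quantifier gave −0.65 after TMM scaling. On its unscaled TPM, 32.9 in replicate 1 and 66.2 in replicate 2, the ratio was −1.01. RNA input moved with the libraries, and its part in this difference was not tested.

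**Figure D4:**
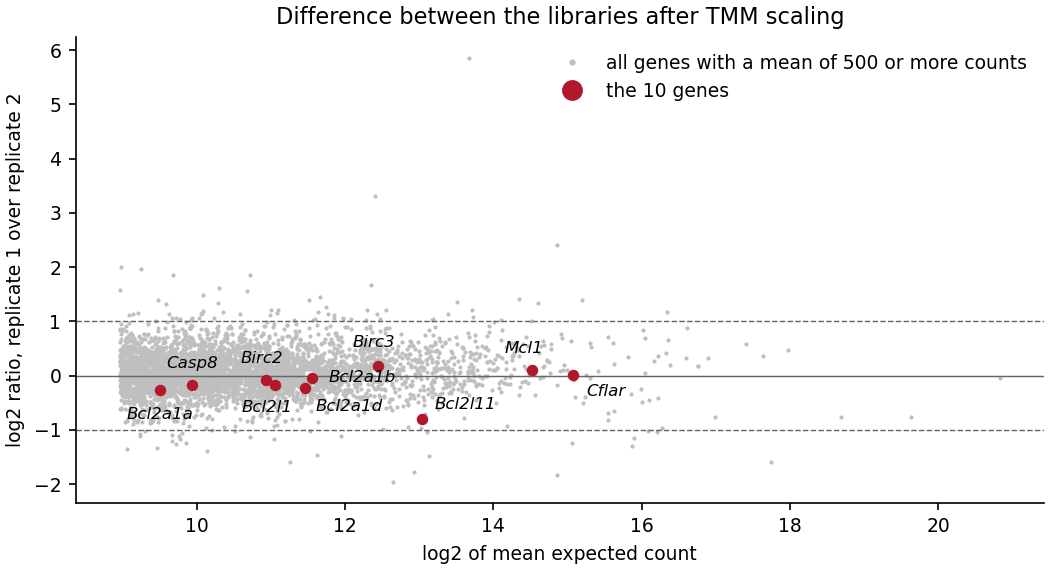
Log2 ratio of replicate 1 over replicate 2 after TMM scaling (y axis) against log2 of the mean expected count (x axis) for the 4360 genes whose counts averaged 500 or more (grey) and the 10 genes (red); dashed lines mark 2-fold. Bcl2l11, at −0.80, is the lowest of the 10, and the other 9 lie between −0.27 (Bcl2a1a) and 0.18 (Birc3).

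The other 9 genes lay within the range that held 95% of the 4360 genes. Bcl2a1a, with 16.5% of those genes lower, had a log2 ratio of −0.27 (−0.42 to −0.12), Bcl2a1d −0.23 (−0.30 to −0.15) and Bcl2l1 −0.17 (−0.26 to −0.09). At the other end, Birc3 had 0.18 (0.12 to 0.23) and Mcl1 0.11 (0.09 to 0.14). Cflar at 0.01, Bcl2a1b at −0.05 and Birc2 at −0.08 had intervals that included 0. In all, 7 of the 10 were lower in replicate 1 on this scale, as were 48.3% of genes, and for Bcl2a1b, Birc2 and Casp8 the sign turned with the second quantifier. The deposited TPM intervals of the libraries did not overlap for 9 of the 10 genes (Bcl2a1a was the exception), which was common, since this held for 72.4% of the 3626 genes at 10 TPM or more in both. On gene table TPM, 0 of the 10 were over 2-fold apart, against 10.1% of those genes. On TPM of the second quantifier 1 was, Bcl2l11, against 4.74%. For 5 of the 10, the TPM lay above the upper bound of its own interval in both libraries, as for 12.2% of those genes, so the intervals were used only as described here.

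Other genes of the same pathways were mostly lower. In 8 lists with 39 genes, 29 genes had 1 TPM or more in both libraries, 14 had at least 10 TPM and 0 had at least 100 TPM, with a median of 9.65 TPM in replicate 1 and 6.64 in replicate 2. Among further survival genes of the BCL2 family, Bcl2l2, which encodes BCL-w, had 15.1 TPM in replicate 1 and 11.5 in replicate 2. Bcl2 itself had 2.78 and 1.92 TPM, and Bcl2l10 was listed at 0 in both. Bcl2a1c, a shorter relative of the Bcl2a1 copies named here for that reason, had 2.40 and 0.94 TPM from 15 and 5 expected counts. Survival genes of this family other than Mcl1, Bcl2l1 and the 3 copies thus summed to 20.3 and 14.4 TPM.

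The genes that oppose them were also modest. Of 7 BH3-only genes other than Bcl2l11, 4 reached 1 TPM in both libraries. Pmaip1, the gene of NOXA, which binds MCL1 and A1, led with 22.7 TPM in replicate 1 and 14.1 in replicate 2, and Bid, which is cleaved by caspase 8, followed with 9.65 and 6.64 TPM. Hrk and Bik were below 0.1 TPM in both libraries. Bcl2l11 therefore had the highest level of the 8 BH3-only genes in both libraries. Of the pore formers, Bax had 30.7 and 22.2 TPM and Bak1 12.7 and 9.80 TPM, while Bok was listed at 0.

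Among the other genes with BIR domains, Birc6 had 68.2 TPM in replicate 1 and 50.1 in replicate 2, and Xiap, a direct caspase inhibitor, had 37.2 and 30.3 TPM, so Xiap lay near Birc2 and below Birc3. Of this list 5 of 7 reached 10 TPM in both. The IAP antagonists Htra2 (14.3 and 9.78 TPM) and Diablo (5.90 and 4.92 TPM) were lower. Apaf1, the scaffold of the apoptosome, had 88.8 and 53.8 TPM and led its list.

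For necroptosis, the highest gene was Zbp1, a nucleic acid sensor that recruits RIPK3, with 153 TPM in replicate 1 and 91.6 in replicate 2. Mlkl, the executioner, had 37.2 and 17.7 TPM. Ripk1 had 23.0 and 18.4 TPM and Ripk3 4.85 and 2.90 TPM, and these kinases are named for their role, after their values were seen. Cflar exceeded each of these genes in both libraries, and Casp8 lay close to Ripk1. Of the receptors and adaptors, Tnfrsf1a, the main TNF receptor, had 44.8 and 21.02 TPM, Fas had 13.3 and 10.7 TPM, and 5 of 6 reached 1 TPM in both.

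**Figure D5:**
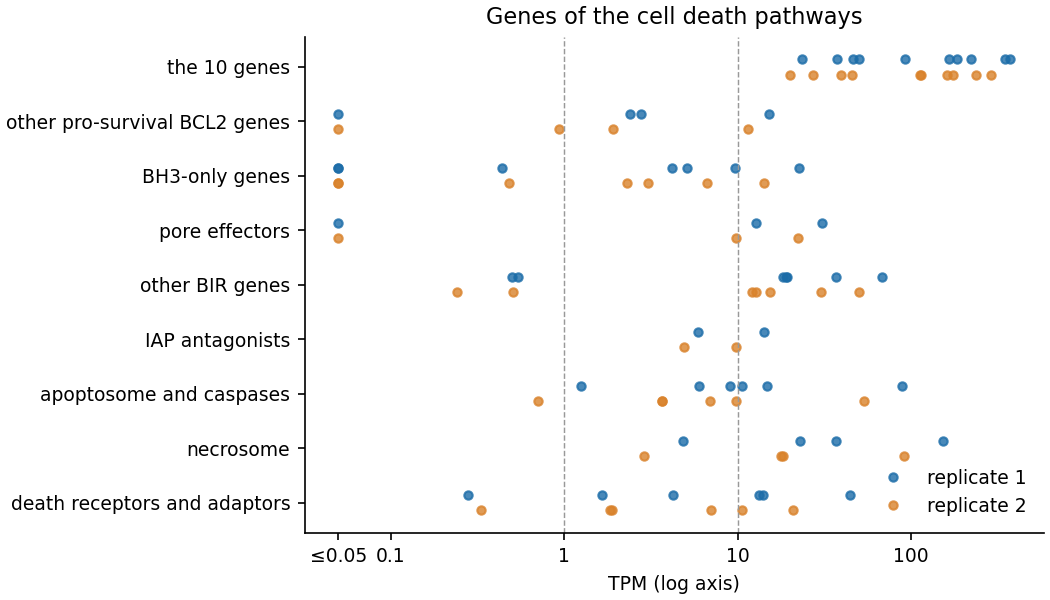
TPM on a log axis of the 10 genes (top row) and of 39 other genes of cell death pathways in 8 lists, with a point per gene for replicate 1 and replicate 2; values at or near 0 are drawn at the left edge and dashed lines mark 1 and 10 TPM. All 10 genes lie right of 10 TPM in both replicates, whereas 14 of the 39 do.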

How the data were processed

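Each library has deposited gene and transcript tables in RSEM format and a transcript table in kallisto format, called the second quantifier. Per the file headers, the deposited values are expected counts (estimates that need not be whole), estimated counts and TPM, with a posterior mean TPM and the bounds of an interval of unstated level. The deposited readme files name mm10 and GENCODE M21, and GENCODE also gave symbols and transcript classes. No aligner or strand setting is given in the sources used here.

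The members, lists and comparisons were chosen with earlier results of these data known. With 1 group of 2 libraries no test was made: levels are means ± SD, and counts of genes stand beside those of all genes. Ratios between genes used log2(TPM + 0.1). Expected counts were rounded and scaled by TMM in edgeR 4.0.16 (R 4.3.3), with DESeq2 1.42.0 size factors as an alternative. The steps were tested on simulated data. Intervals cover counting error only, since no molecular identifiers are given. Motifs were matched in RefSeq promoters from 250 bases before to 50 after the start. Named genes are the 10, the 2 highest and all below 0.1 TPM in each list, and transcripts holding 10% or more of a gene; Mcl1-202, Cflar-213 and the smaller BIM forms were added after their values were seen. A gene that this rule names is not reported here.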

Additional observations from a re-analysis of the deposited data

How the results depend on the processing

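Of 35 alternative values of levels, ratios and shares, 23 moved by less than the SD between the libraries, 11 moved further and 1 reversed. Many of the 23 could hardly have moved. Rescaling TPM or changing the added 0.1 TPM barely alters a ratio between genes at these levels. The Bcl2a1 copies and Mcl1 have only protein-coding transcripts, so restricting to those left their ratio unchanged. Of 15 alternative counts of genes, 14 stayed within 1.5 times the main count. The median level of the 10 genes (121 TPM) was 63.4 TPM with the second quantifier, 149.9 as depth-scaled counts (CPM) without length correction, 529.9 TPM when rescaled over nuclear protein-coding genes, and 84.5 TPM with protein-coding transcripts only, an alternative chosen after seeing the data. With those transcripts the log2 ratio of Cflar over Casp8 (3.91) was 3.44 and that of Birc3 over Birc2 (2.09) was 1.91. Counts without length correction gave 5.12 and 1.47 for these ratios, and −1.82 in place of 0.54 for the Bcl2a1 copies over Mcl1. The second quantifier gave 2.85 for Birc3 over Birc2. The retained-intron share (2.77%) was 2.50% with the second quantifier and 3.34% from counts. Apart from the length correction, the causes were not tested.

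With 2 libraries, leaving out either must move a mean by less than the SD, so these values show only the range. The median level was then 113 to 129 TPM, the ratio of Mcl1 over Bcl2l11 was 1.07 to 1.91, that of Cflar over Casp8 3.84 to 3.98, that of Birc3 over Birc2 2.05 to 2.14 and that of the Bcl2a1 copies over Mcl1 0.40 to 0.68. The retained-intron share was 2.61% to 2.93%, and all 10 genes stayed at 10 TPM or more. Differences between the libraries have no value without a replicate. No paired analysis was possible because there is only 1 group. At floors of 5 and 20 TPM, 10 and 9 of the genes passed. For 0 of the 10 genes did median-of-ratios scaling, gene table TPM, genes with any count or the TMM-scaled counts of the second quantifier give a difference over 2-fold, against 8.83%, 16.1%, 30.2% and 12.1% of genes. These shares also include genes with far fewer counts than the 10. The unscaled TPM of the second quantifier, added after seeing the data, put 1 of the 10, Bcl2l11, past 2-fold. With the second quantifier or floors of 0.5 and 5 TPM, 29, 32 and 20 of the 39 pathway genes passed. Of 50 other values for single genes' TPM, 33 moved by more than the spread, and of 30 for their ratio between libraries, 18 left the counting interval. Many of these moves were built into the scales. CPM and rescaled TPM are on other scales than TPM, and every gene moved with each of them. Gene table TPM keeps the general shift between the libraries, and with it every ratio left the interval. Depth limits Casp8 and Bcl2a1a most, and shared sequence limits the split among Bcl2a1 copies.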
